A study of Mus musculus with 12 samples.

Results

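The deposited table of small RNA counts from mouse cells held 1549 named rows, and 6 of them are the mature microRNAs (miRNAs) described here. They are mmu-miR-29a-3p, mmu-miR-29b-3p and mmu-miR-29c-3p of the miR-29 family and mmu-miR-148a-3p, mmu-miR-148b-3p and mmu-miR-152-3p of the miR-148/miR-152 family, written below without the species prefix mmu. They were taken by name, as families known to repress DNA methyltransferases (DNMTs), and all 6 had a row. The cells fell into 5 groups. Androgenetic haploid embryonic stem cells (ESC), whose only genome is that of a sperm, came from 3 lines, with 2 libraries of A129-2, 3 of A129-6 and 2 of A129-17. The diploid reference line was R1, with 2 libraries. Round spermatids (RS), the haploid cells that meiosis leaves in the testis, had 3 libraries and came from male 129Sv mice of unstated age. All groups were labelled WT in genotype and Sorting in treatment. Haploid ESC were kept in medium with the cytokine LIF and the inhibitors called 2i, and were periodically enriched for haploid cells by sorting. R1 cells were sorted as well, and their medium was not described separately. Spermatids were sorted on the DNA dye Hoechst from trypsin-digested tubules. The labels do not say whether replicates came from separate cultures or animals. The spread that p-values below rest on may therefore be technical, and diploid ESC are represented by 1 line.

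A miRNA guides an Argonaute protein to messenger RNAs that pair with its seed, the bases from its second to its eighth position, and lowers their translation and stability. miR-29 is best known as a repressor of the de novo methyltransferases DNMT3A and DNMT3B, shown in human cancer cells, and of collagens. The miR-148/miR-152 family is known as a repressor of DNMT1, the methyltransferase that copies methylation at replication, and miR-148 also of DNMT3B, both shown in human cells. DNMT transcripts, DNMT proteins and DNA methylation were not measured in these libraries.

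The 6 mature sequences are printed because all that separates members of a family lies outside the seed, which is set in capitals (RefSeq, GRCm38.p6, 5′ to 3′).
miR-29a-3p: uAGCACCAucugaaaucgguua
miR-29b-3p: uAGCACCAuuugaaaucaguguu
miR-29c-3p: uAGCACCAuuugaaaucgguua
miR-148a-3p: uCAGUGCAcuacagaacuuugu
miR-148b-3p: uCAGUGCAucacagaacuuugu
miR-152-3p: uCAGUGCAugacagaacuugg

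Of 1158 rows of the table with a RefSeq sequence, 3 carried the miR-29 seed and 3 the miR-148/miR-152 seed, and these were the members themselves. Counted from the 5′ end, miR-29c-3p differs from miR-29a-3p by C10U alone, and miR-29b-3p differs from miR-29a-3p by C10U, G18A, U21G and A22U over their shared length. miR-148b-3p differs from miR-148a-3p by C9U and U10C, and miR-152-3p differs from miR-148a-3p by C9U, U10G and U20G. The sources used here do not give how reads matching more than 1 of such close sequences were assigned, so counts of the minor members could hold reads of the major one.

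The members come from 7 genomic copies on 4 chromosomes (GRCm38.p6, genes from GENCODE M21). miR-29a-3p lies at chr6:31062673-31062694 on the minus strand, and the precursors Mir29a and Mir29b-1 are 275 bases apart there, outside annotated genes. miR-29b-3p has a copy at chr6:31063025-31063047 (minus) and another at chr1:195037091-195037113 (plus), and its count is the sum over both. miR-29c-3p lies at chr1:195037600-195037621 (plus), with 426 bases between the precursors Mir29b-2 and Mir29c, both in exons of the noncoding transcript A330023F24Rik and opposite to an exon of Cd46. miR-148a-3p lies at chr6:51269829-51269850 (minus), outside annotated genes. miR-148b-3p lies at chr15:103285185-103285206 (plus) in an intron of Copz1, and miR-152-3p at chr11:96850439-96850459 (plus) in an intron of Copz2, paralogous genes for a coat protein of Golgi vesicles.

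Library totals ran from 3709786 to 9102467 counts in the haploid lines, were 7632174 and 9176080 in R1 and ran from 155232 to 243714 in RS, so a given level rests on far fewer counts in RS. In such bulk samples fewer cells of a type and less RNA per cell cannot be told apart. Levels are CPM, counts scaled to a common library total. Fold changes are log2 values from edgeR after TMM scaling (trimmed mean of M values, which sets library sizes by the bulk of the miRNAs), given with their standard error (SE), and called at an adjusted p under 0.05. Markers separated ESC from RS: 11 pluripotency miRNAs of the miR-290 and miR-302 clusters summed to 494416 to 652010 CPM in the haploid lines, 344897 to 348685 in R1 and 69.8 to 4580 in RS, and 8 spermatogenic miRNAs to 1724 to 7058, 1086 to 1130 and 272795 to 368007 CPM. All 11 pluripotency markers were higher than in RS in both ESC comparisons, where 44.5% of all features were higher in the haploid lines and 33.6% in R1. Between the haploid lines and R1, however, 6 were lower and 2 higher, beside 35.3% of all features in each direction. miR-292a-5p made up most of the haploid sum (356299 to 569338 CPM, against 147934 to 151303 in R1). Of the spermatogenic markers 7 of 8 were lower in the haploid lines than in RS, where 20.8% of all features were lower. The exception was miR-470-5p at 1410 to 5445 CPM in the haploid lines and 3771 to 5069 CPM in RS.

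**Figure D1:**
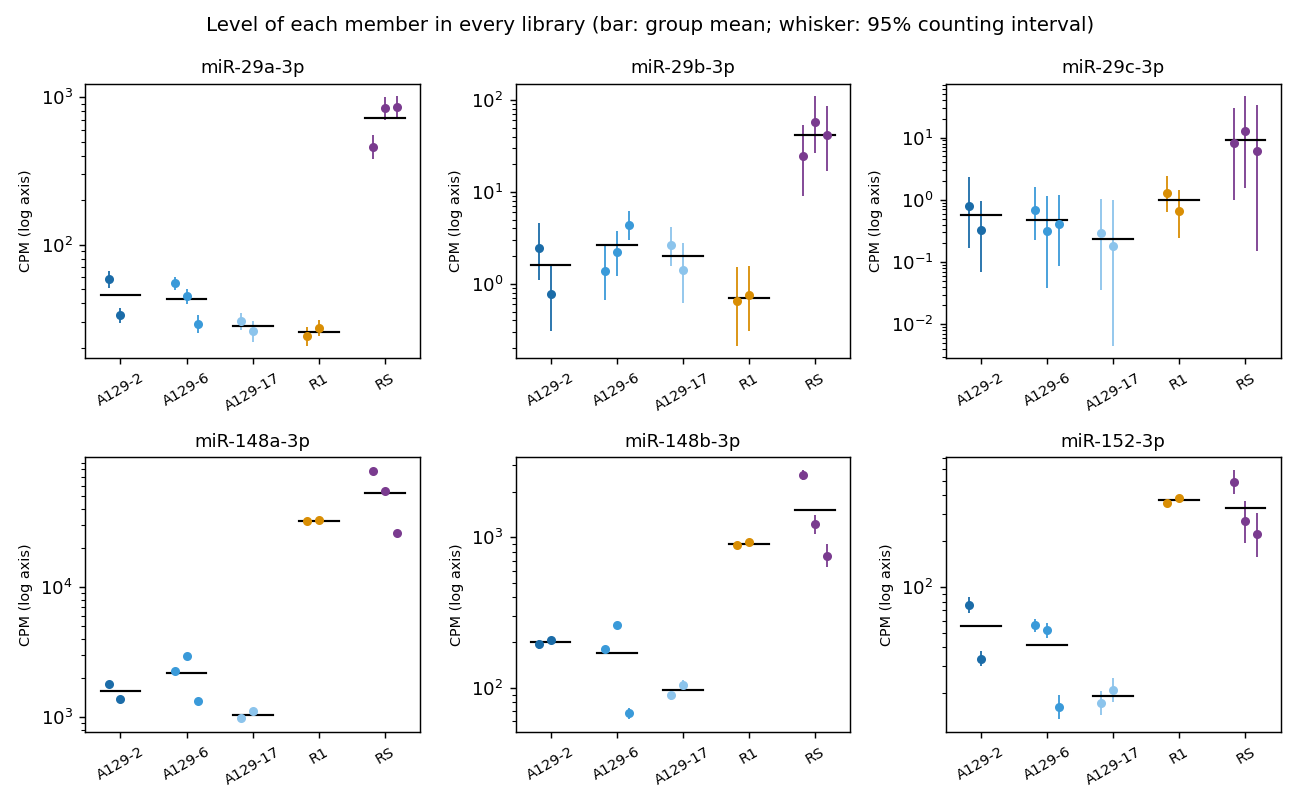
CPM of each member in every library on a log axis, 1 panel per miRNA, by group (A129-2, A129-6, A129-17, R1, RS). Points are libraries with exact 95% counting intervals and bars are group means. All 7 haploid libraries lie below both R1 libraries for the 3 miR-148/miR-152 members, and RS lies above every ESC library for miR-29a-3p and miR-29b-3p. The share of all features that separate in either way was not counted.

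miR-148a-3p was by far the most abundant member and differed most between the haploid lines and R1. A129-2 libraries held 1812 and 1381 CPM, those of A129-6 held 2278, 2956 and 1339 CPM, and those of A129-17 held 988 and 1111 CPM. R1 had 31962 and 32764 CPM, and RS had 78182, 54557 and 25970 CPM. All haploid libraries were low, all R1 and RS libraries were high with no overlap, and the R1 values fell inside the range of RS. Here and wherever groups are said below not to overlap, the share of all features that separate likewise was not counted. From the lowest group mean upward the order was A129-17, A129-2, A129-6, R1 and RS (1049, 1596, 2191, 32363 and 52903 CPM, with SDs of 87.1, 305, 812, 567 and 26145). Of neighbours in that order, only A129-6 and R1 were told apart by the fits.

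Against R1, miR-148a-3p was 19.3-fold lower in the mean of the haploid lines (log2 -4.27, SE 0.19, adjusted p = 8.54e-11, edgeR). The background was broad: 70.5% of the 757 features tested were called in either direction and 35.3% were called lower, with a median log2 difference of 0.33. miR-148a-3p lay low in that distribution, with 6.34% of tested features below it. Line by line, against the same R1 libraries, the log2 difference was -4.44 for A129-2 (SE 0.31), -3.80 for A129-6 (SE 0.25) and -4.58 for A129-17 (SE 0.31).

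The other members with this seed were lower in the haploid lines too. miR-148b-3p stood at 194 and 208 CPM in A129-2 and at 181, 263 and 67.6 CPM in A129-6. A129-17 had 89.8 and 105 CPM, with 890 and 925 CPM in R1, and 2589, 1218 and 756 CPM in RS. The haploid libraries did not overlap those of R1 or RS, while R1 lay between the RS libraries. The haploid lines had 5.63-fold less of it than R1 (log2 -2.49, SE 0.26, adjusted p = 5.79e-07, edgeR).

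miR-152-3p was the least abundant of its family. It stood at 76.3 and 33.7 CPM in A129-2 and at 56.1, 51.9 and 16.2 CPM in A129-6. A129-17 had 17.3 and 21.1 CPM, with 358 and 383 CPM in R1, and 492, 271 and 222 CPM in RS. Again no haploid library reached R1 or RS, and R1 lay within RS. It was 10.0-fold lower in the haploid lines than in R1 (log2 -3.32, SE 0.27, adjusted p = 4.53e-08, edgeR).

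So 3 of the 5 members tested between the haploid lines and R1 were called lower and 0 higher. In the single lines the 3 miR-148/miR-152 members were lower each time. For A129-2, 28.8% of all features were called lower and 31% higher, 59.8% in all. For A129-6 these shares were 32.1%, 35% and 67.1%, and for A129-17 they were 31.6%, 34.6% and 66.2%. miR-148b-3p was lower by log2 -2.23, -2.39 and -2.85 in those lines in that order (SE 0.38, 0.33 and 0.39), and miR-152-3p by -2.93, -3.13 and -3.91 (SE 0.41, 0.35 and 0.43). These calls were kept in all 22 alternatives run (21 for a single line), but a correction for GC content left smaller differences of -2.80 for miR-148a-3p, -1.03 for miR-148b-3p and -2.66 for miR-152-3p. A fit over all 12 libraries, which changes the features tested and the dispersion as well as the scaling, left -3.42, -1.63 and -2.48. These settings shifted the median of all features by -0.38 and 0.61. In the 12-library fit 66.0% of the called features were higher, against 267 higher and 267 lower in the fit of the 9 ESC libraries.

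**Figure D2:**
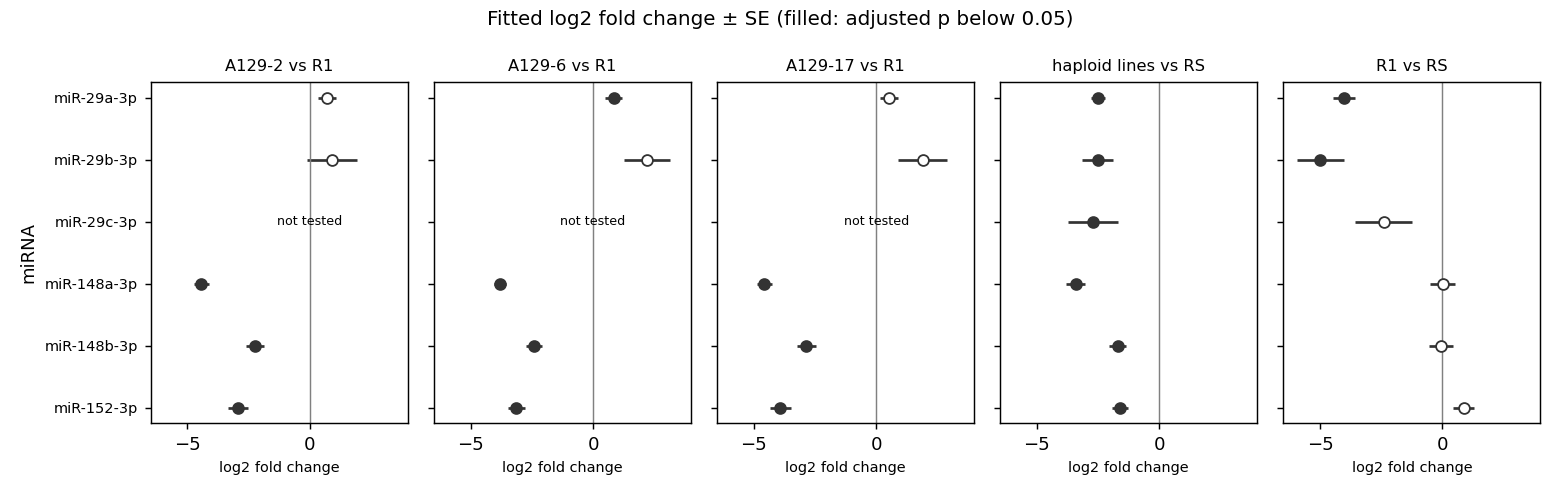
Fitted log2 fold change of each member (x axis, ± SE) in 5 comparisons, 1 panel each; filled points have an adjusted p below 0.05 (edgeR). The 3 miR-148/miR-152 members lie left of 0 against R1 in every haploid line, all 6 lie left of 0 in the haploid lines against RS, and miR-29a-3p and miR-29b-3p do so in R1 against RS.

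miR-29 was scarce in all ESC. miR-29a-3p stood at 58.2 and 33.2 CPM in A129-2 and at 54.5, 44.7 and 29.1 CPM in A129-6. A129-17 had 30.2 and 25.9 CPM, against 24.0 and 27.4 CPM in R1. In RS it reached 460, 844 and 864 CPM. A129-2 and A129-6 lay above R1, A129-17 overlapped it, and RS stood far above all ESC. The haploid lines and R1 differed by log2 0.69 (SE 0.31), which was not called (adjusted p = 0.0582, edgeR).

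In A129-6 miR-29a-3p was called higher than in R1 (log2 0.85, SE 0.34, adjusted p = 0.0405, edgeR), where, as given above, 35% of all features were called higher. The difference was 0.69 in A129-2 and 0.52 in A129-17 (adjusted p = 0.116 and 0.220), and the lines were not called different from each other (adjusted p = 0.797). The A129-6 call was lost in 10 of 21 alternatives, with adjusted p between 0.000184 and 0.247 over all of them. After GC correction miR-29a-3p was called higher in the haploid lines together (log2 2.17, adjusted p = 8.85e-05), and likewise when RS was fitted too (1.53, adjusted p = 0.000916). Upper-quartile scaling gave 1.00 (adjusted p = 0.00965), and 7 of 22 alternatives called it in all. Among these were the fits without A129-6 replicate 2 or 3 (adjusted p = 0.0470 and 0.0378).

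miR-29b-3p rested on few counts. A129-2 libraries held 9 and 7 counts, A129-6 libraries 10, 14 and 32, A129-17 libraries 18 and 8, R1 libraries 5 and 7, with 6, 9 and 7 in the much shallower RS libraries. As levels these were 0.769 to 4.39 CPM in the haploid lines, 0.655 and 0.763 CPM in R1, and 24.6 to 58.0 CPM in RS, so that the haploid libraries were above R1, the lowest only barely, and RS stood above all. The haploid lines were not called different from R1 (log2 1.66, SE 0.86, adjusted p = 0.0961, edgeR), and the pooled level was 2.98-fold that of R1 with a 95% counting interval of 1.63 to 5.96. None of the lines was called on its own, with log2 values of 0.90 for A129-2, 2.19 for A129-6 and 1.90 for A129-17 (adjusted p = 0.465, 0.0505 and 0.105, edgeR). After GC correction and with all 12 libraries the haploid mean was called higher (3.90 and 2.47, adjusted p = 0.00328 and 0.00933, edgeR). Both R1 libraries lay under the filter cut, 1.39 CPM in the ESC fit and 1.52 CPM over all 12 libraries. miR-29b-3p thus passed only through groups where it is higher, so these calls cannot be weighed as independent of that selection.

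miR-29c-3p was close to the limit of detection. A129-2 libraries held 3 and 3 counts, A129-6 libraries 5, 2 and 3, and A129-17 libraries 2 and 1, with 10 and 6 in R1, and 2, 2 and 1 in RS. That is 0.179 to 0.809 CPM in the haploid lines, 1.31 and 0.654 CPM in R1 and 6.00 to 12.9 CPM in RS. The haploid range overlapped R1, and miR-29c-3p did not pass the filter on low counts among ESC. Its pooled level in the haploid lines was 0.433 of that in R1 (95% counting interval 0.211 to 0.901), from 19 and 16 counts. Without the filter the difference was not called (log2 -1.22, SE 1.23, adjusted p = 0.518, edgeR).

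The make-up of each family was uneven in every group. miR-29a-3p gave on average 95.8% of the miR-29 counts in A129-2, 92.3% in A129-6, 92.7% in A129-17, 93.8% in R1 and 93.4% in RS. miR-148a-3p gave 86.1% ± 1.35, 91.7% ± 2.10 and 90.0% ± 0.275 of the miR-148/miR-152 counts in A129-2, A129-6 and A129-17 (mean ± SD over the 2, 3 and 2 libraries). Its share was 96.2% ± 0.0565 in R1 (n = 2) and 96.6% ± 0.615 in RS (n = 3). All haploid libraries, at 85.1% to 94.1%, were below those of R1 and RS, at 96.2% to 97.3%. The share of miR-148b-3p was higher in the haploid lines, with means of 11.1%, 6.65% and 8.34% in A129-2, A129-6 and A129-17 against 2.70% in R1 and 2.72% in RS. The summed family stood at 1095 to 3271 CPM in the haploid lines, 33211 and 34072 CPM in R1 and 26947 to 81263 CPM in RS for miR-148/miR-152, and at 27.5 to 61.5, 25.9 and 28.8, and 492 to 915 CPM for miR-29.

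Between the 3 haploid lines, 0 of the 5 members tested were called different, where 3.83% of all features were called (edgeR, F-test over the lines), and 174 of 757 features had an unadjusted p under 0.05. 1 member, miR-148a-3p, was among those 174, with adjusted p = 0.113, a log2 range of 0.77 between lines and an unadjusted p of 0.0107. DESeq2 called it (adjusted p = 0.0402), as did edgeR without A129-6 replicate 3 (0.0458). That library and A129-17 replicate 1 had the lowest TMM factors. A129-17 was lower than A129-6 by log2 -0.77 for miR-148a-3p (SE 0.25, adjusted p = 0.171) and by -0.77 for miR-152-3p (SE 0.36, adjusted p = 0.305). The difference of A129-17 from A129-2 was -0.98 for miR-152-3p (SE 0.39, adjusted p = 0.157). Without both libraries of lowest factor the haploid lines remained lower than R1 by log2 -4.31 for miR-148a-3p, -2.45 for miR-148b-3p and -3.28 for miR-152-3p.

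The other arm of a precursor is made from the same transcript, so it was read beside the members. The hairpin of Mir148a is printed with both mature arms in capitals, the 5p arm first (RefSeq, chr6:51269812-51269910, minus strand, GRCm38.p6).
Mir148a hairpin: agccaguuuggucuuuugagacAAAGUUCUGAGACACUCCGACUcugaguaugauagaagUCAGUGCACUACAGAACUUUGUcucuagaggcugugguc

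miR-148a-5p stood at 38.3 and 33.7 CPM in A129-2 and at 59.5, 99.4 and 25.7 CPM in A129-6. A129-17 had 23.2 and 36.2 CPM, with 304 and 324 CPM in R1, and 65.7, 96.6 and 54.0 CPM in RS, the last from 16, 15 and 9 counts. The haploid libraries were below R1, as for the 3p arm, but overlapped RS. Relative to R1 the 5p arms were lower in the haploid lines by log2 -2.86 for miR-148a-5p (SE 0.27), -2.60 for miR-148b-5p (SE 0.33) and -4.10 for miR-152-5p (SE 0.38, adjusted p of 4.89e-06 or less for each, edgeR). So both arms of all 3 precursors of this family were called lower.

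The balance of the arms of Mir148a differed between groups. The 3p arm gave 96.7% to 98.1% of the Mir148a counts in the haploid lines, 99.1% and 99.0% in R1, and 99.8% to 99.9% in RS, with no overlap. For the other precursors of this family the haploid range overlapped R1. The 3p share of Mir148b was 91.1% to 95.7% in the haploid lines and 93.4% and 92.8% in R1. That of Mir152 was 92.2% to 97.3% in the haploid lines and 91.3% and 92.7% in R1. In RS the 3p shares were 97.7% to 99.5% for Mir148b and 97.4% to 100% for Mir152. These too lay above every ESC library, but on 0 to 3 counts of the 5p arm per RS library. R1 had 4.45-fold the pooled level of miR-148a-5p in RS (95% counting interval 3.26 to 6.23), while its pooled miR-148a-3p level was 0.575 of that in RS, both on the CPM scale. In the fit miR-148a-5p was higher in R1 by log2 2.89 (SE 0.45, adjusted p = 6.66e-06, edgeR), a call lost after GC correction (0.87, adjusted p = 0.0808). For miR-148b-5p and miR-152-5p the RS libraries held 3, 2 and 3 and 2, 0 and 1 counts, against 484 and 661 and 261 and 275 counts in R1. Among the miR-29 arms, miR-29a-5p had 0 to 3 counts and miR-29b-1-5p 0 to 10 counts in every library, miR-29b-2-5p had 0 to 17, and miR-29c-5p had 1 to 23.

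**Figure D3:**
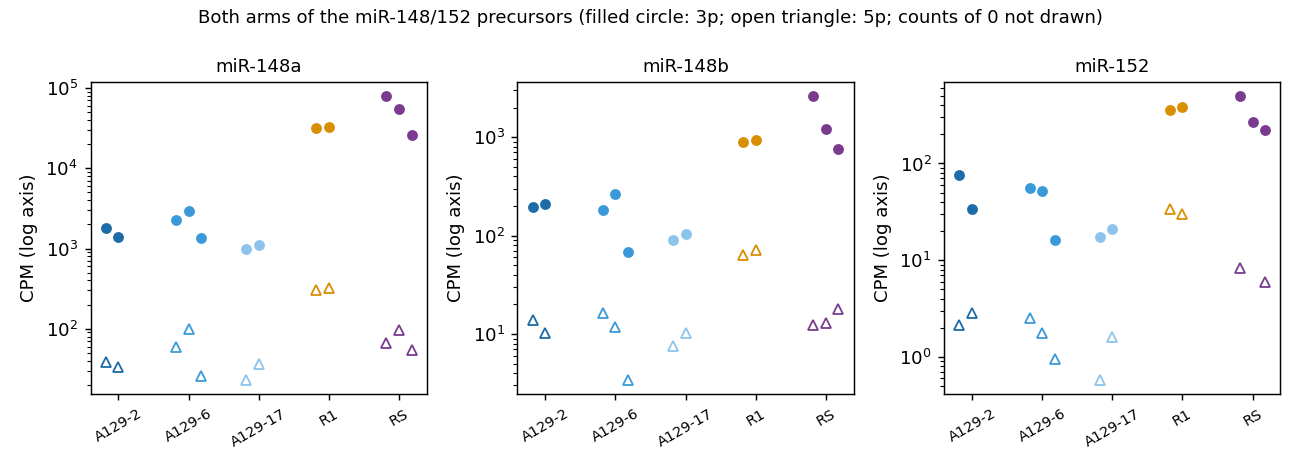
CPM of the 3p arm (filled circles) and the 5p arm (open triangles) of the miR-148/miR-152 precursors in each library, by group, on a log axis; counts of 0 are not drawn. Both arms lie lower in the haploid lines than in R1, and the distance between the arms of Mir148a is greatest in RS, where the 5p arm rests on 9 to 16 counts.

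The 5 members that passed the filter on low counts in ESC as well were lower in the haploid lines than in spermatids, where 20.8% of the 806 features tested were called lower, 44.5% higher and 65.4% in either direction (edgeR). The levels are those given above, and the haploid libraries lay below every RS library for each of these 5. The share of all features that separate in this way was not counted. miR-148a-3p was 10.7-fold lower (log2 -3.42, SE 0.38, adjusted p = 3.69e-08), miR-148b-3p by log2 -1.70 (SE 0.36, adjusted p = 0.000216) and miR-152-3p by -1.62 (SE 0.33, adjusted p = 0.000182). miR-29a-3p was 5.63-fold lower (log2 -2.49, SE 0.28, adjusted p = 3.25e-08). miR-29b-3p was lower by log2 -2.51 (SE 0.63, adjusted p = 0.00126). miR-29c-3p, with 5 counts in RS, passed the filter only through RS, where it is high, and so is not counted with them. Its value was -2.71 (SE 1.03, adjusted p = 0.0250), and a call was lost in 6 of 23 alternatives, including no filter (adjusted p = 0.0762) and leaving out RS replicate 2 (0.113).

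These differences run against the median of all features, which was higher by log2 2.79 in the haploid lines. That median depends on the scaling, at 1.29 with total counts and 0.39 after GC correction. Of the called features 68.1% were higher, but 46.1% with total counts, 48.6% with upper-quartile scaling and 36.9% after GC correction. With total counts the members were lower by more, from -3.23 for miR-152-3p to -5.10 for miR-148a-3p. Without RS replicate 1 the differences were smaller, at -2.87 for miR-148a-3p, -0.91 for miR-148b-3p and -1.05 for miR-152-3p, and all 3 were still called (adjusted p = 9.32e-07, 0.0279 and 0.0173, edgeR).

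The diploid line was set against spermatids next, with 19.4% of features called lower, 33.6% higher, 53% in all and a median of 2.04. Of the called features 63.5% were higher, but 53.5% with total counts, 49.6% with upper-quartile scaling and 39.2% after GC correction. miR-29a-3p was called and was 16.3-fold lower in R1 (log2 -4.02, SE 0.45, adjusted p = 6.15e-08, edgeR). miR-29b-3p was lower by log2 -4.98 (SE 0.95, adjusted p = 9.60e-05, edgeR, from 12 and 22 counts). Both R1 libraries lay under the filter cut for it, at 0.655 and 0.763 CPM against 1.52 CPM. It passed the filter only through groups where it is higher, so its call cannot be weighed like that of miR-29a-3p. miR-29c-3p passed only through RS, where it is high, and was not called (-2.40, SE 1.16, adjusted p = 0.0890, edgeR).

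The miR-148/miR-152 members did not pass between R1 and RS, and their sign depended on the setting. The log2 differences were 0.00 for miR-148a-3p (SE 0.52, adjusted p = 1), -0.07 for miR-148b-3p (SE 0.49, adjusted p = 0.917) and 0.86 for miR-152-3p (SE 0.44, adjusted p = 0.108, edgeR). Over 24 alternatives each they ran from -1.33 to 1.01, from -1.51 to 0.92 and from -1.40 to 1.82. After GC correction all 3 were called lower in R1, where 132 of 651 features were called higher and 205 lower. miR-152-3p was called higher in R1 in 15 alternatives. The data therefore give no direction for this family between R1 and RS.

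**Figure D4:**
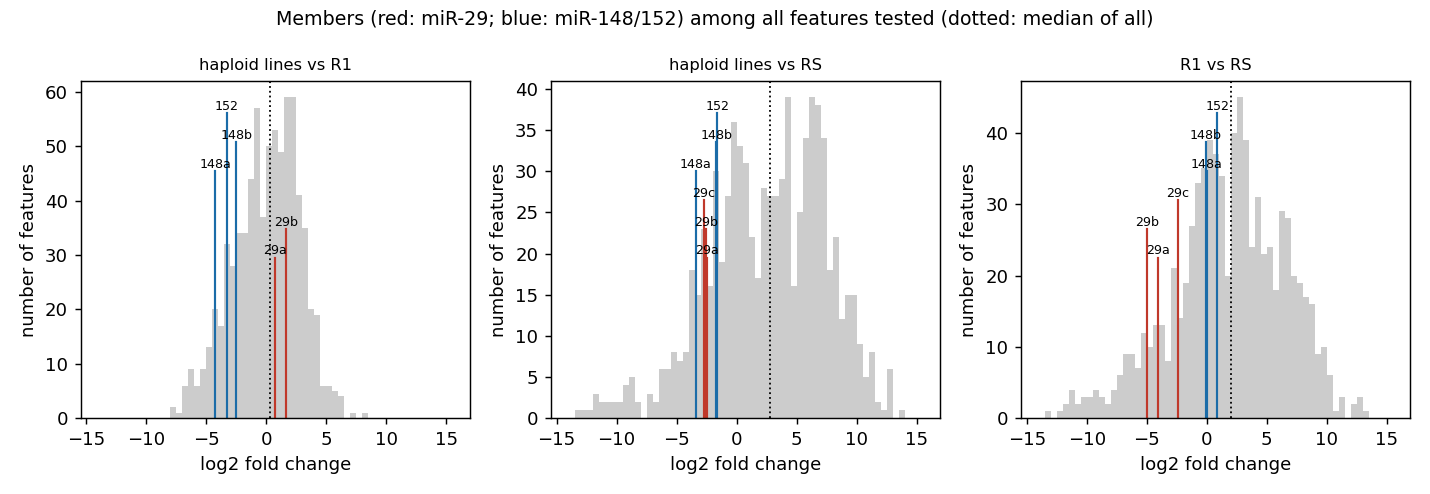
Histograms of the log2 fold change of all features tested (grey; x axis, log2 fold change; y axis, number of features) in 3 comparisons, with the members marked by lines (red miR-29, blue miR-148/miR-152) and the median of all features dotted. Line height has no meaning; the miR-148/miR-152 lines lie on the lower side against R1, all 6 lie below the median against RS, and in R1 against RS the miR-148/miR-152 lines sit around 0.

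Marker miRNAs of other cell types were found in RS as well, and the summed levels of the blood and endothelial list and of the gonadal somatic list were above every ESC library there. The mesenchymal sum overlapped between RS and ESC. The 6 mesenchymal markers with a row, of 7 listed, summed to 5958 to 26969 CPM in the haploid lines, 15011 and 16709 CPM in R1, and 67592, 23333 and 39869 CPM in RS replicates 1, 2 and 3. The 7 blood and endothelial markers summed to 356 to 856, to 640 and 678, and to 14316, 1437 and 7577 CPM. In RS that sum was mostly the endothelial miR-126a-3p, at 792 to 12207 CPM. This miRNA stood at 33.8 to 75.2 CPM in the haploid lines and at 241 and 262 CPM in R1. The lymphocyte miRNA miR-150-5p ran the other way and made up most of the sum in the haploid lines. It stood at 269 to 758 CPM there, 190 and 215 CPM in R1 and 32.2 to 114 CPM in RS. Of the 6 blood and endothelial markers tested, 5 were lower and 1 higher in the haploid lines than in RS, and 4 were lower and 2 higher in R1 than in RS. Of all features 20.8% were lower and 44.5% higher in the haploid lines, and 19.4% lower and 33.6% higher in R1. Sertoli and other gonadal somatic cells were represented by both arms of miR-202, at 0 to 0.412 CPM in the haploid lines, 0.327 and 0.393 CPM in R1 and at least 90.0 CPM in each RS library. No marker of these lists with a row was at 0 throughout RS, while both arms of miR-202 were at 0 throughout A129-2 and A129-17 and miR-202-3p throughout A129-6. RS replicate 1 was highest for the mesenchymal and blood sums and for the 3 miR-148/miR-152 members, and lowest for miR-29a-3p. Replicates 2 and 3 did not keep that order: both sums were higher in replicate 3, and the 3 miR-148/miR-152 members were higher in replicate 2. The part of such cells in the RS levels was not tested.

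A list of 9 other miRNAs reported to repress DNMT or TET genes (TET enzymes begin the removal of methylation) was read beside the members. Between the haploid lines and R1, 6 of 9 were lower, 0 higher and 3 not called, with a median of log2 -1.44 against 0.33 for all features. miR-143-3p, a repressor of DNMT3A in human cells and the most abundant of the list, stood at 5506 to 24966 CPM in the haploid lines and at 13139 and 15043 CPM in R1, overlapping, and was not called (log2 -0.30, SE 0.31, adjusted p = 0.389, edgeR). miR-26a-5p, which represses TET genes, stood at 4413 to 7982 CPM in the haploid lines and at 13459 and 14108 CPM in R1, without overlap, and was lower (log2 -1.04, SE 0.20, adjusted p = 0.000236, edgeR). Of all features 35.3% were lower and 35.3% higher in this comparison. Against RS 3 of the 9 were lower in the haploid lines and 0 higher, where 20.8% of all features were lower and 44.5% higher. In R1 against RS 3 were higher and 1 lower, shares close to the 33.6% and 19.4% of all features.

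miRNAs whose seed shares only part of the miR-148/miR-152 seed were read for comparison. These were 5 miR-290 cluster members with AAGUGC, typical of pluripotent cells. The others were the miR-130 and miR-301 miRNAs, which hold AGUGCA at another position than miR-148/miR-152. Of the 5 miR-290 members 3 were lower and 0 higher in the haploid lines than in R1, beside 35.3% of all features in each direction. All 5 were higher than in RS in both ESC comparisons, where 44.5% of all features were higher in the haploid lines and 33.6% in R1. Of miR-130a-3p, miR-130b-3p, miR-301a-3p and miR-301b-3p, 2 were lower and 0 higher against R1, a number too small to set against the 35.3% of all features called lower. miR-130a-3p, the most abundant of them, stood at 22.4 to 83.6 CPM in the haploid lines and 74.8 and 88.2 CPM in R1, overlapping, and was not called (log2 -0.68, SE 0.30, adjusted p = 0.0531, edgeR).

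Across the 12 libraries the members fell into their families. The Pearson correlation of log2(normalised CPM + 1) was 0.785 to 0.917 among the miR-29 members and 0.896 to 0.910 among the miR-148/miR-152 members. Between the families it was -0.131 to 0.669, the highest being miR-29c-3p with miR-148a-3p. Libraries of a group share their cells and depth and RS is shallow, so these values describe the 5 groups more than 12 separate points.

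Of 480 features with a mean of at least 10 normalised CPM, the nearest to miR-148a-3p were miR-340-5p (r = 0.967), miR-872-5p (0.960) and miR-21a-5p (0.931). miR-340-5p averaged 135, 80.1 and 62.4 CPM in A129-2, A129-6 and A129-17, 1190 CPM in R1 and 1905 CPM in RS. The nearest to miR-148b-3p were miR-30b-3p (0.902), miR-340-5p (0.901) and miR-101a-3p (0.866), and the nearest to miR-152-3p were miR-101a-3p (0.942), miR-450a-5p (0.914) and miR-340-5p (0.894). miR-29a-3p was nearest to miR-3470a (0.975) and miR-122-5p (0.972). miR-122b-3p (0.972), from the other strand, had nearly the same counts as miR-122-5p, and reads of these cannot be told apart. miR-29b-3p was nearest to miR-204-5p (0.967), and miR-29c-3p to miR-471-5p (0.965), miR-463-5p (0.962) and miR-468-5p (0.957).

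**Figure D5:**
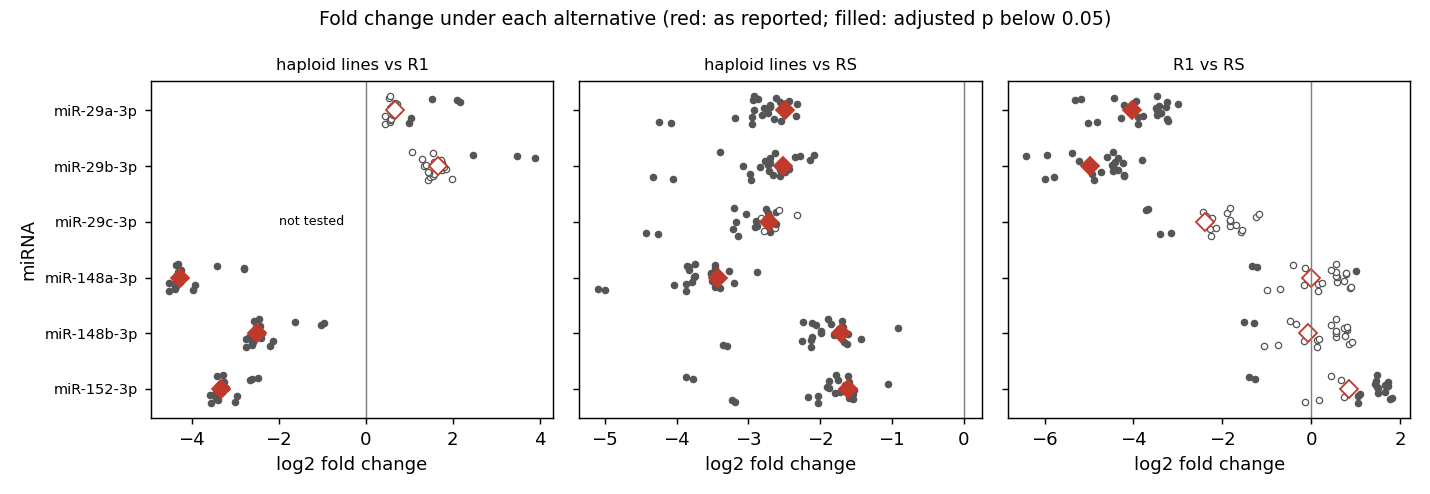
Log2 fold change of each member (x axis) in 3 comparisons as reported (red diamonds) and under each alternative (grey points; filled where the adjusted p is below 0.05). The miR-148/miR-152 points stay left of 0 for the haploid lines against R1 and against RS, and scatter on both sides of 0 for R1 against RS.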

How the data were processed

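Small RNA from 12 samples was ligated to adapters with a NEBNext kit and sequenced on an Illumina NovaSeq, per the labels' protocols. The submitters' processing notes name Bowtie 0.12.9 and DESeq2. No source used here gives the genome build, the miRNA annotation, strand or the handling of reads with several matches. The authors deposited raw counts per miRNA, with no normalisation. Ligation and PCR favour some sequences, so levels of different miRNAs compare only roughly, and without molecular identifiers intervals cover counting error only (exact, 95%).

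Counts were tested with edgeR 4.0.16 in R 4.3.3 (limma 3.58.1): filterByExpr by group (minimum count 10, total 15), TMM, quasi-likelihood F-test and Benjamini-Hochberg adjustment over all features, two-sided, at 0.05. The 9 ESC libraries were fitted together (757 features), as were all 12 for RS (806 features), with the haploid lines weighted equally. The test was also run on simulated counts with a fixed dispersion and equally many rises and falls. Such counts lack the shift in composition between ESC and RS, so that run cannot vouch for comparisons with RS. GC content came from RefSeq sequences, found for 609 of the 757 and 651 of the 806 features (80.4% and 80.8%). Alternatives were other scalings and filters, DESeq2 1.42.0, each library left out, a replicate block, GC correction, other sets of libraries and sums per line. Leaving out both libraries of lowest TMM factor was added after seeing the data. The members, lists and tests were chosen with earlier results of these data known. Named were the members, their other arms, the most abundant miRNAs of each list, at most 2, and the 3 miRNAs closest to each member by correlation. Figures were drawn with matplotlib 3.10.9.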

Additional observations from a re-analysis of the deposited data

How the results depend on the processing

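Over 42 results for single miRNAs and 922 alternatives, 803 kept direction and side of the threshold, 35 lost a call, 55 gained one and 29 changed sign. The lower levels of the 3 miR-148/miR-152 members in the haploid lines, against R1 and against RS, were called in all alternatives run. Members called in the haploid lines against R1 numbered 5 instead of 3 after GC correction, GC correction with the replicate block, and with all 12 libraries in the fit. Against R1 the GC settings also gave 5 instead of 3 in A129-2, and these with the 12-library fit gave 5 instead of 3 in A129-17. Between the lines, DESeq2 called 1 member instead of 0, and leaving out single libraries gave 0 to 1 (1 without A129-6 replicate 3). In R1 against RS 2 members were called, but 1 with the stricter filter (minimum count 50) and 2 to 4 with a library left out (4 without RS replicate 2). GC correction with or without the block gave 6 (132 of 651 features higher, 205 lower without it). All features called between the lines numbered 29, but 0 with total-count scaling, 82 with no filter, 3 with the stricter filter, 85 with DESeq2, 72 with the replicate block, 73 with GC correction and the block, 2 with all 12 libraries in the fit, 89 without A129-6 replicate 3 and A129-17 replicate 1, and 0 to 80 with a library left out (80 without A129-6 replicate 3, 0 without A129-6 replicate 1 or 2). Against RS the features called in the haploid lines fell to 338 with GC correction and the block, against 527. The cause was not tested.

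Signs changed in R1 against RS. For miR-148a-3p (0.00) the log2 difference was -0.99 with upper-quartile scaling, -0.71 with total counts, -0.16 with the stricter filter, -0.14 with the replicate block, -1.23 after GC correction, -1.33 with the block as well, and -0.41 with only R1 and RS fitted. For miR-148b-3p (-0.07) it was 0.13 with RLE scaling and with DESeq2, 0.86 with scaling without the miR-290 cluster, 0.92 with no filter, 0.56 without A129-6 replicate 3 and A129-17 replicate 1, and -0.070 to 0.81 with a library left out (-0.070 without A129-6 replicate 3). For miR-152-3p (0.86) it was -0.13 with upper-quartile scaling, -1.26 after GC correction and -1.40 with the block as well. miR-148a-5p was just called higher in the haploid lines than in RS (0.89, SE 0.37, adjusted p = 0.0407, edgeR), but only 3 of 24 alternatives kept the call and 17 lost it (adjusted p from 0.0107 to 0.614). Its pooled CPM ratio was 0.630 (95% counting interval 0.461 to 0.885), the other way, and the value was -0.70 with upper-quartile scaling, -0.83 with total counts, -0.78 after GC correction and -0.91 with the block as well. miR-29c-3p and, with the stricter filter, miR-29b-3p have no value in some fits.

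Whether replicate numbers pair samples was judged from deviations from the group mean. Of 21 pairs of libraries with the same number 1 had a correlation above 0.1 (median 0.00973). Of 36 pairs with different numbers 4 did (median 0.0017). In groups of 2 libraries the deviations mirror each other, so these values are not independent and cannot settle the question. With the replicate block, 3 members were called in the haploid lines against R1, where 269 of 757 features were higher and 265 lower. Against RS 6 were called, among them miR-29c-3p, which passed the filter only through RS. There 352 of 806 features were higher and 166 lower. In R1 against RS 2 were called, beside 261 features higher and 153 lower. miR-29a-3p in A129-6 was not called against R1 with the block (adjusted p = 0.0512, edgeR). The 5 to 32 counts of miR-29b-3p and 1 to 10 of miR-29c-3p limit what can be said of them, and in RS all 5p arms rest on 16 counts or fewer.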
